A study of Mus musculus with 9 samples.

Results

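The genes described here are 36 genes of glycolysis and of the transcriptional response to low oxygen. They were taken by symbol from a table of 56289 mouse gene identifiers. Of the 36, 35 reached at least 1 FPKM (fragments per kilobase of transcript and per M (mega) fragments mapped) in at least 3 of the 9 libraries and were tested among 13026 genes that did. The exception was Slc16a3, the lactate exporter MCT4, which stayed between 0.203 and 0.888 FPKM. Its levels are given below without a test.

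The study sequenced poly-A RNA from cells labelled RAW264.7, a macrophage-like line of BALB/c origin, and looked for genes that differ between control, cytokine-treated and drug-treated cells. There were 3 groups of 3 libraries: untreated cells, cells given TNF-α (tumour necrosis factor alpha, an inflammatory cytokine) for 24 h, here called TNF, and cells given WBG (Wang Bi granules, a herbal medicine for rheumatoid arthritis) together with TNF-α for 24 h, here called TNF plus WBG. No group received WBG without TNF-α, and the labels used here give no dose. The growth protocol is the same for all 9 libraries and names an atmosphere of 95% O2 and 5% CO2. The labels do not say whether the replicates were separate cultures, so the p-values rest on the spread among libraries that may be technical repeats. In bulk RNA, a change in the share of cells that express a gene and a change in RNA per cell cannot be told apart.

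The cell type label was checked against marker genes. Of 20 macrophage markers, 3 averaged 1 FPKM or more and 6 were listed at 0 in every library, among them Ptprc, Itgam and Adgre1, which define the lineage. The list summed to between 8.54 and 12.3 FPKM per library. Of 14 fibroblast markers, 10 averaged 1 FPKM or more, and the list summed to 2915 to 3176 FPKM in the untreated group, 3264 to 3302 in the TNF group and 3083 to 3291 in the TNF plus WBG group. Erythroid, endothelial and epithelial markers all had means under 1 FPKM. The labelled cell type is therefore not used below as a description of these cells. The depth inferred from the smallest steps of the values, if a step is 1 fragment, was 18.9 to 26.1 M fragments per library.

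Glycolysis splits glucose into pyruvate with a small yield of ATP, and lactate dehydrogenase turns pyruvate into lactate so that the pathway can go on without oxygen. When oxygen is short, prolyl hydroxylases no longer mark the alpha subunit of the transcription factor HIF for degradation, and HIF then binds DNA at short sites with the core RCGTG. Its known targets include glucose transporters, most glycolytic enzymes, the lactate and pyruvate switches, and genes of pH control, mitophagy, collagen hydroxylation and blood vessel growth. In macrophages and in synovial fibroblasts, inflammatory stimuli are known to raise glycolysis as well.

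Promoter sequences of 6 of the genes are shown as examples of windows that hold the core sequence of HIF sites, and they were picked because they hold it. They comprise a glycolytic pair (Pgk1 and Ldha), the oxygen sensor gene Egln3, and the targets Bnip3, Ankrd37 and Car9. Each is the 250 bases before the 5′-most start listed for the gene, 5′ to 3′ in the direction of transcription, from RefSeq on GRCm38.p6. That start was taken for every gene counted below, and which start these cells use was not examined. Capitals mark ACGTG, the A form of the core, on either strand (read as CACGT where it lies on the other strand). The coordinates are chrX:106186850-106187099, plus strand for Pgk1, chr7:46845554-46845803, plus strand for Ldha, chr12:54203875-54204124, minus strand for Egln3, chr7:138909507-138909756, minus strand for Bnip3, chr8:45999851-46000100, minus strand for Ankrd37 and chr4:43506776-43507025, plus strand for Car9.
Pgk1: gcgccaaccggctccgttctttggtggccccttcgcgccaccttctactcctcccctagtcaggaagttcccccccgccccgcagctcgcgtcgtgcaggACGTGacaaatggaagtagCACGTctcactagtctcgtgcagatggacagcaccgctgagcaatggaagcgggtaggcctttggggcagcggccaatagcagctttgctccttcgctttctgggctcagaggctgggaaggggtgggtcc
Ldha: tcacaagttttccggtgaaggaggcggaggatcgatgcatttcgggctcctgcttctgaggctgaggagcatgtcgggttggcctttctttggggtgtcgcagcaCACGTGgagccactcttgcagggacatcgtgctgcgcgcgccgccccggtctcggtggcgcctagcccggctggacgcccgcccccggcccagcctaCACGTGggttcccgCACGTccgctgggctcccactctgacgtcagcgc
Egln3: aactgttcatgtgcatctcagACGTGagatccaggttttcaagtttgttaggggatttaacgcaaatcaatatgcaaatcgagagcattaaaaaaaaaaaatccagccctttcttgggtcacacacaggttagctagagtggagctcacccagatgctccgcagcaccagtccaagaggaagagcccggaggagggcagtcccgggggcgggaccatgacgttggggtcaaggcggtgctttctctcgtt
Bnip3: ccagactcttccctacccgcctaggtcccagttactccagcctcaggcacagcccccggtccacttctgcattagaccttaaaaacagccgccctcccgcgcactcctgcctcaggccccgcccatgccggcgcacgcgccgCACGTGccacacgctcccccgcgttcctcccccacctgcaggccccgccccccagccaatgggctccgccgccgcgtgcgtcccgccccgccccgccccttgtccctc
Ankrd37: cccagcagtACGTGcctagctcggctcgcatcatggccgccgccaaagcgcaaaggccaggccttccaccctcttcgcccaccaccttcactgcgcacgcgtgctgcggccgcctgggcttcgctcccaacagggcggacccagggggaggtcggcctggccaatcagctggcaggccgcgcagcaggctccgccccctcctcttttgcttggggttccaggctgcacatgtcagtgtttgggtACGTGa
Car9: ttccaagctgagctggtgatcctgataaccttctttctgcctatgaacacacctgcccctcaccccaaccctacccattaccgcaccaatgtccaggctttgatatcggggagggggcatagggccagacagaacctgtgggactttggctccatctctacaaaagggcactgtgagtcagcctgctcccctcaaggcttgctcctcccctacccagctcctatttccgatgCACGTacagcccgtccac
Ldha carried 3 such sites, with first bases at -145, -48 and -34 from the start, and 2 of the 3 were CACGTG, which reads ACGTG on both strands and is counted once. Pgk1 carried 2 sites, at -150 and -131, on opposite strands and close together. Ankrd37 carried 2, at -241 and -6. Egln3, Bnip3 and Car9 carried 1 each, at -229, -108 and -18.

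Of the 36 genes, 35 had an entry in the promoter table, and Ndrg1 had none. ACGTG on either strand was present in 17 of these 35 windows (48.6%), against 4467 of 27025 windows of the same length over all genes (16.5%). The windows of the 35 genes were richer in G+C, with a median of 60.4% against 52.0%. Among genes whose windows lay in the middle range of the set (55.6 to 67.4% G+C), 21.8% carried ACGTG. At least 2 sites were present in 6 of 35 windows (17.1%), against 2.0% of all genes and 3.3% of those of like G+C. With GCGTG, the other form of the core, also allowed, the shares were 77.1% of the 35, 38.6% of all genes and 55.7% of genes of like G+C. These are matches of letters in a window and do not show binding.

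In untreated cells the pathway was expressed at very different levels from step to step. Pkm (pyruvate kinase, the last step of glycolysis) was highest at 1177 ± 61.7 FPKM (SD, n = 3). It was followed by Eno1 (enolase) at 631 ± 47.1, Pgk1 (phosphoglycerate kinase) at 586 ± 74.7, Ldha (lactate dehydrogenase A) at 464 ± 27.9, Aldoa (aldolase A) at 453 ± 38.0 and Gapdh (glyceraldehyde phosphate dehydrogenase) at 428 ± 68.1 FPKM. In all, 10 of the 36 genes had an untreated mean of at least 100 FPKM, 18 lay between 10 and 100, and 8 lay under 10. The lowest were Adm (the vasodilator peptide adrenomedullin) at 1.62 ± 0.553 and Slc16a3 at 0.535 ± 0.343 FPKM. When the genes were put in order of level, 24 of 35 neighbouring pairs had overlapping libraries, so that order is coarse.

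Across the 35 genes tested, most stood higher after treatment, by small steps. The median log2 fold change of TNF against untreated was 0.15, with 27 genes above 0 and 8 below, where the median of all 13026 genes was 0.00 and 50% of them were above 0. For TNF plus WBG against TNF the median was 0.17, with 31 above 0 and 4 below, where all genes had a median near 0 (-0.0026) and 48.9% above 0. For TNF plus WBG against untreated the median was 0.33, again with 31 above 0 and 4 below, where 49.2% of all genes were above 0. The first and last comparisons share the untreated libraries, and the first and second share the TNF libraries. Log2 values here are differences of log2(FPKM + 1), which understate the change of genes near 1 FPKM.

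**Figure D1:**
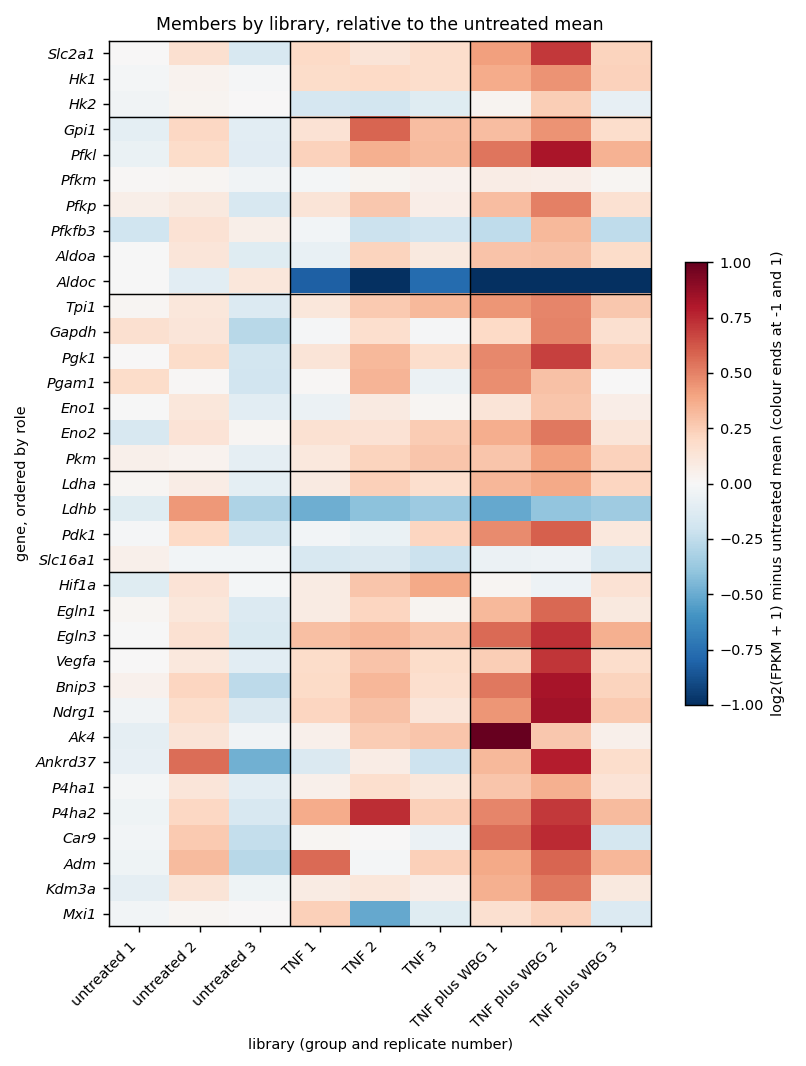
Colour shows log2(FPKM + 1) minus the untreated mean for the 35 genes tested (rows, ordered by role) in each of the 9 libraries (columns), with colours ending at -1 and 1. TNF plus WBG replicate 2 is the reddest column and replicate 3 the palest of its group, and Aldoc is blue in all 6 treated libraries.

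Tests used limma with Benjamini-Hochberg adjustment over all 13026 genes, and a gene was called at an adjusted p under 0.05. For TNF against untreated, 1 of the 35 genes was called, Aldoc, which was lower. The background was 10.6% of all genes called (6.43% higher and 4.21% lower), and 1 of 35 lies below it. At an unadjusted p under 0.05 stood 9 higher and 3 lower of the 35, against 24% of all genes (13.1% higher). For TNF plus WBG against TNF none was called, where 13 of all genes (0.0998%) were called, 0.0691% higher and 0.0307% lower. At an unadjusted p under 0.05 stood 9 of the 35, of which 7 were higher, against 9.06% of all genes (4.18% higher). For TNF plus WBG against untreated 7 of the 35 were called, 6 higher (Hk1, Egln3, Ldha, Pkm, Tpi1 and Pfkl) and 1 lower (Aldoc), against a background of 9.19% (5.52% higher and 3.67% lower). At an unadjusted p under 0.05 stood 21 higher and 2 lower, against 22.8% of all genes (12.3% higher).

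These counts moved with single libraries. The 7 calls of TNF plus WBG against untreated became 17 without TNF plus WBG replicate 3, 11 without untreated replicate 2 and 4 without untreated replicate 3 (Aldoc, Egln3, Hk1 and Ldha). Over all genes, the 1197 calls of this comparison became 821 to 1115 over the 9 omissions. Under each of the 9 omissions Aldoc, Hk1 and Egln3 were called. Pfkl lost its call without untreated replicate 1 (adjusted p = 0.0632) or 3 (0.0677), and Pkm without untreated replicate 3 (0.0553). Ldha lost it without TNF plus WBG replicate 1 (0.0516) or 2 (0.0557). Tpi1 lost it without untreated replicate 3 (0.0574), or TNF plus WBG replicate 1 (0.0624) or 2 (0.0664), all by limma with Benjamini-Hochberg adjustment. For TNF against untreated the count was 3 without TNF plus WBG replicate 3, where Hk1 (adjusted p = 0.0138) and Egln3 (0.0492) joined Aldoc, and 2 without TNF plus WBG replicate 2, where Hk1 (0.0327) joined it. The 1386 calls of that comparison over all genes became 919 to 1296 over the omissions.

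Genes whose 3 libraries lay wholly above or below those of the other group were counted as well. TNF stood wholly above untreated in 8 of 35 genes (Hk1, Pfkl, Eno2, Pkm, Ldha, Vegfa, Egln3 and P4ha2) and wholly below in 4 (Hk2, Aldoc, Ldhb and Slc16a1), where 15.5% and 14.4% of all genes did so. TNF plus WBG stood wholly above TNF in 5 (Slc2a1, Hk1, Hk2, Egln3 and Ankrd37) and wholly below in none, where the background was 7.03% and 7.72%. Against untreated, TNF plus WBG stood wholly above in 17 and wholly below in 3 (Aldoc, Ldhb and Slc16a1), where the background was 14.5% and 13.6%.

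**Figure D2:**
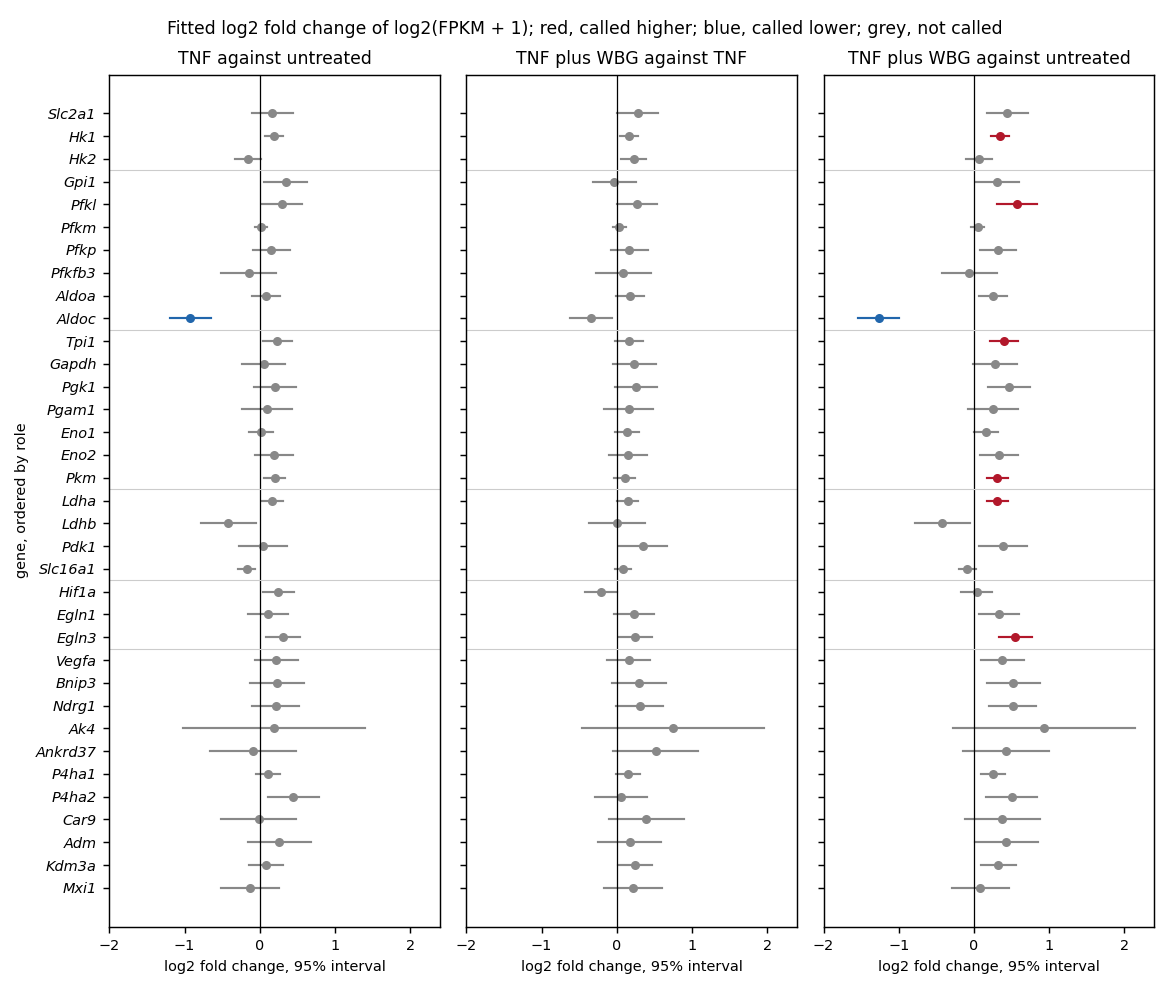
Fitted log2 fold change of log2(FPKM + 1) with its 95% interval (horizontal axis) for the 35 genes tested (vertical axis, by role) in the 3 comparisons. Red points are genes called higher and blue points genes called lower at an adjusted p under 0.05; 6 red points and 1 blue one stand in the right panel, 1 blue point in the left, and none in the middle.

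Glucose entry is set by the transporter GLUT1, encoded by Slc2a1, and by the hexokinases, which phosphorylate glucose and so keep it in the cell. Hk1, the hexokinase expressed in most tissues, read 60.4, 62.5 and 60.5 FPKM in untreated replicates 1 to 3, 69.6, 70.3 and 69.3 with TNF, and 79.3, 83.6 and 72.0 with TNF plus WBG. The 3 groups did not overlap and stood in that order, with little spread in the first 2. Hk1 rose 1.28-fold from untreated to TNF plus WBG (log2 fold change 0.35 ± 0.05 SE, adjusted p = 0.00309). The steps between were 0.19 ± 0.05 for TNF against untreated (adjusted p = 0.0538) and 0.16 ± 0.05 for TNF plus WBG against TNF (adjusted p = 0.468), neither past the threshold. The limma fit pools the spread of the 3 groups, and the SD of log2 values was 0.027, 0.011 and 0.107 in that order. For TNF against untreated, Hk1 passed with only the 6 libraries compared (0.0196) or the stricter filter (0.0494). Over the alternatives its adjusted p in limma reached 0.143.

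Hk2, the hexokinase that responds to insulin and hypoxia, took another course. It read 22.8, 23.9 and 23.4 FPKM untreated, 20.6, 20.4 and 21.4 with TNF, and 23.8, 27.8 and 22.1 with TNF plus WBG. The TNF libraries lay below both other groups without overlap, and the untreated and TNF plus WBG libraries overlapped. Neither difference passed the test (-0.16 ± 0.07, adjusted p = 0.237 for TNF against untreated, and 0.22 ± 0.07, adjusted p = 0.482 for TNF plus WBG against TNF).

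Slc2a1 read 26.3, 29.4 and 23.4 FPKM untreated, 30.3, 28.9 and 29.8 with TNF, and 35.3, 43.5 and 30.8 with TNF plus WBG. The TNF plus WBG libraries were above all others, and TNF plus WBG replicate 3 exceeded the highest TNF library only narrowly. Against untreated the difference was 0.45 ± 0.12 with an adjusted p of 0.0512, and it passed the threshold without untreated replicate 2 (0.0462) or without TNF plus WBG replicate 3 (0.0193).

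**Figure D3:**
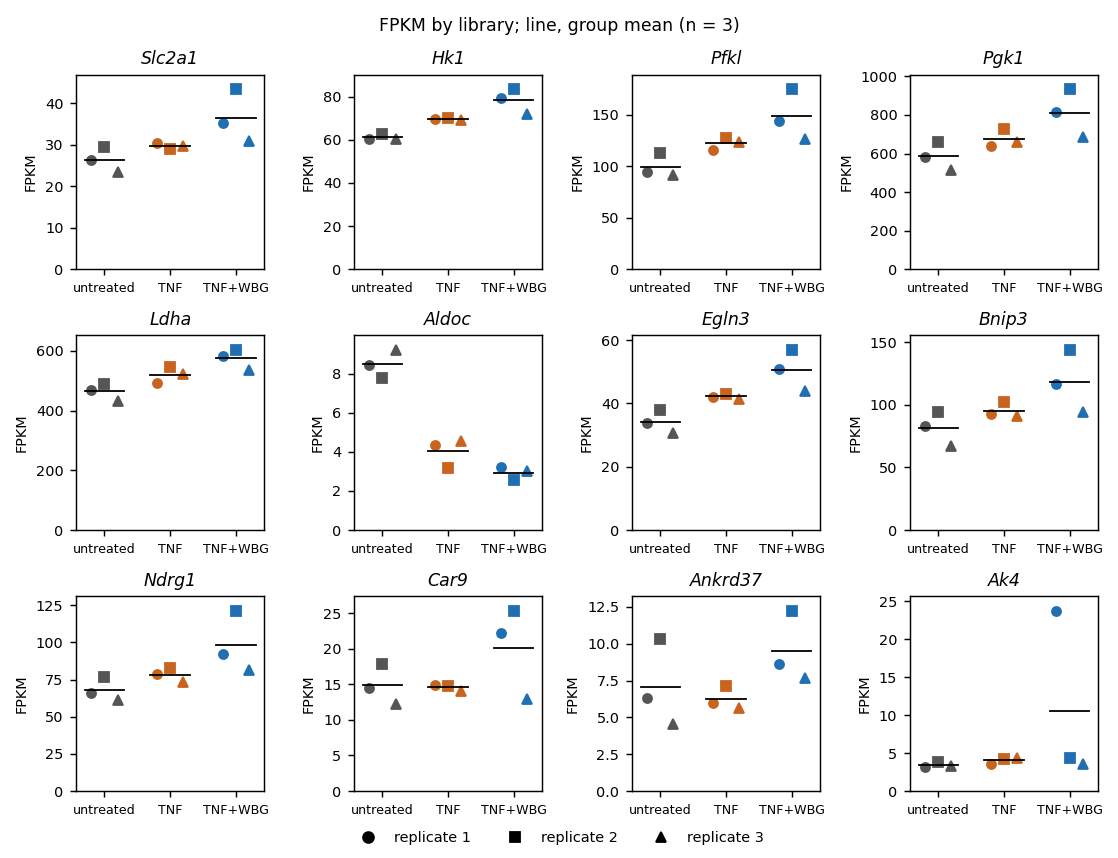
FPKM (vertical axes, each from 0) of 12 of the genes by group, with each point a library (circle, square and triangle for replicates 1, 2 and 3) and the line the group mean (n = 3). In TNF plus WBG the square lies above the triangle in every panel except Aldoc, and in Ak4 the circle stands alone at 23.8 FPKM.

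In the hexose phosphate stage glucose 6-phosphate is isomerised, phosphorylated a second time and split by aldolase. Of the 7 genes, 2 were called in TNF plus WBG against untreated (28.6%, against 9.19% of all genes), Pfkl higher and Aldoc lower. Pfkl, the liver type subunit of phosphofructokinase, which commits sugar to glycolysis, read 94.6, 113 and 91.5 FPKM untreated, 116, 127 and 124 with TNF, and 144, 175 and 126 with TNF plus WBG. All treated libraries lay above all untreated ones, while TNF and TNF plus WBG overlapped through TNF plus WBG replicate 3. The rise was 1.49-fold (0.57 ± 0.12, adjusted p = 0.0169).

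The other phosphofructokinase subunits moved less. Pfkm (muscle type) kept to 33.7 to 36.3 FPKM over all 9 libraries. Its exons overlap those of Senp1 and Gm26513, the higher of which reached 11.8 FPKM in its highest library. Pfkp (platelet type) ranged from 8.15 to 13.6 FPKM. Its exons overlap those of its neighbour Pitrm1, which reached 36.8 FPKM in its highest library. The strand of the overlaps was not considered, and the levels of Pfkm and Pfkp are uncertain to that extent. Pfkfb3, which makes the activator fructose 2,6-bisphosphate, ranged from 4.71 to 7.54 FPKM with no group apart. Gpi1, the isomerase, had group means of 156 ± 20.1, 199.6 ± 31.0 and 194 ± 18.6 FPKM, and its difference for TNF against untreated (0.35 ± 0.13) did not pass (adjusted p = 0.131).

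Aldoc, the aldolase known as the brain form, was the only gene of the set called lower. It read 8.42, 7.77 and 9.21 FPKM untreated, 4.36, 3.17 and 4.53 with TNF, and 3.21, 2.54 and 3.04 with TNF plus WBG. Every TNF library was below every untreated one, and 1 TNF library (replicate 2) overlapped the TNF plus WBG group. Aldoc fell to 0.475 of the untreated mean with TNF (-0.92 ± 0.12, adjusted p = 0.00144) and to 0.346 with TNF plus WBG (-1.27 ± 0.12, adjusted p = 0.000251). The step from TNF to TNF plus WBG was -0.35 ± 0.12 and did not pass (adjusted p = 0.488). Aldoa, the main aldolase, had means of 453 ± 38.0, 479.8 ± 49.3 and 539 ± 21.8 FPKM, with no comparison called.

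The triose phosphate stage harvests ATP and ends in pyruvate. All 7 of its genes had positive fold changes in all 3 comparisons, where 48.9 to 50% of all genes did in each. In TNF plus WBG against untreated 2 of them, Tpi1 and Pkm, were called (28.6%, against 9.19% of all genes). Tpi1, triose phosphate isomerase, read 239, 256 and 215 FPKM untreated, 256, 284 and 296 with TNF, and 321, 331 and 285 with TNF plus WBG. The untreated and TNF plus WBG groups did not overlap, and the rise was 1.32-fold (0.40 ± 0.08, adjusted p = 0.0168).

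Pkm read 1219.9, 1205 and 1106 FPKM untreated, 1267, 1375 and 1422 with TNF, and 1427.5, 1562 and 1383 with TNF plus WBG. All treated libraries exceeded all untreated ones, and TNF plus WBG overlapped TNF. Its rise to TNF plus WBG was 1.24-fold (0.31 ± 0.06, adjusted p = 0.0147). A gene model that overlaps its exons, Gm49759, reached 63.3 FPKM in its highest library.

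Pgk1 read 584, 662 and 513 FPKM untreated, 637, 729 and 658 with TNF, and 816, 935 and 683 with TNF plus WBG. The TNF plus WBG libraries were all above the untreated ones, replicate 3 by the smallest distance and within the TNF range. Pgk1 missed the threshold in TNF plus WBG against untreated (0.46 ± 0.12, adjusted p = 0.050034). Without TNF plus WBG replicate 3 its adjusted p was 0.0181, and without untreated replicate 2 it was 0.037. It also passed narrowly with a pseudocount of 5 (0.0498), the stricter filter (0.0477), robust limma (0.0493) or its near-identical copies added (0.0498).

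Eno2, the neuronal enolase, had means of 8.95 ± 1.03, 10.3 ± 0.497 and 11.6 ± 1.77 FPKM with no call. Gapdh, Pgam1 (phosphoglycerate mutase) and Eno1 were likewise not called, and for these 3 genes reads may be shared with near-identical copies. Gapdh has 77 other gene models with at least 95% identity over at least 300 bases, of which 28 averaged 1 FPKM or more. Together these copies were listed at 1051 FPKM, against 463 for Gapdh itself. The 3 copies of Eno1 summed to 619 FPKM against 658 for Eno1, and the copy of Pgam1 was listed at 33.4 FPKM. With the copies added, an alternative chosen after seeing the data, the difference of TNF plus WBG against untreated was 0.27 for Gapdh (0.28 ± 0.13 without them) and 0.16 for Eno1 (also 0.16, ± 0.07, without them), and neither passed.

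At the pyruvate branch Ldha makes lactate from pyruvate, Ldhb favours the reverse reaction, and Pdk1 switches off pyruvate dehydrogenase and so keeps pyruvate out of mitochondria. Ldha read 469.5, 488 and 433 FPKM untreated, 492, 547 and 520.5 with TNF, and 583, 603 and 537 with TNF plus WBG. The 3 untreated libraries were the lowest of the 9. Ldha rose 1.24-fold in TNF plus WBG against untreated (0.31 ± 0.06, adjusted p = 0.0139), and the step from TNF to TNF plus WBG was 0.14 ± 0.06 (adjusted p = 0.547).

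Ldhb read 12.5, 18.9 and 10.9 FPKM untreated, 9.49, 10.1 and 10.5 with TNF, and 9.32, 10.2 and 10.5 with TNF plus WBG. The 6 treated libraries lay together below all 3 untreated ones, which were spread widely by untreated replicate 2. The difference of TNF against untreated, -0.42 ± 0.16, did not pass (adjusted p = 0.156). Ldhb too has a near-identical copy, Gm5514, with a mean of 1.15 FPKM against 11.4 for Ldhb, so reads may be shared. With copies added its means were 15.3 FPKM untreated, 11.1 with TNF and 11.2 with TNF plus WBG. Pdk1 read 28.8, 33.5 and 25.5 FPKM untreated, 28.5, 27.7 and 34.0 with TNF, and 40.7, 44.5 and 31.4 with TNF plus WBG. Only TNF plus WBG replicates 1 and 2 stood above the rest, and the difference from TNF was 0.35 ± 0.14 (adjusted p = 0.523).

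Slc16a1, the lactate and pyruvate carrier MCT1, read 18.2, 17.2 and 17.2 FPKM untreated, 15.6, 15.8 and 14.9 with TNF, and 16.8, 16.9 and 15.6 with TNF plus WBG. Both treated groups lay below untreated without overlap, and the difference with TNF was -0.17 ± 0.05 (adjusted p = 0.0612). Slc16a3 read 0.513, 0.203 and 0.888 FPKM untreated, 0.310, 0.273 and 0.381 with TNF, and 0.279, 0.292 and 0.443 with TNF plus WBG, with no group apart.

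**Figure D4:**
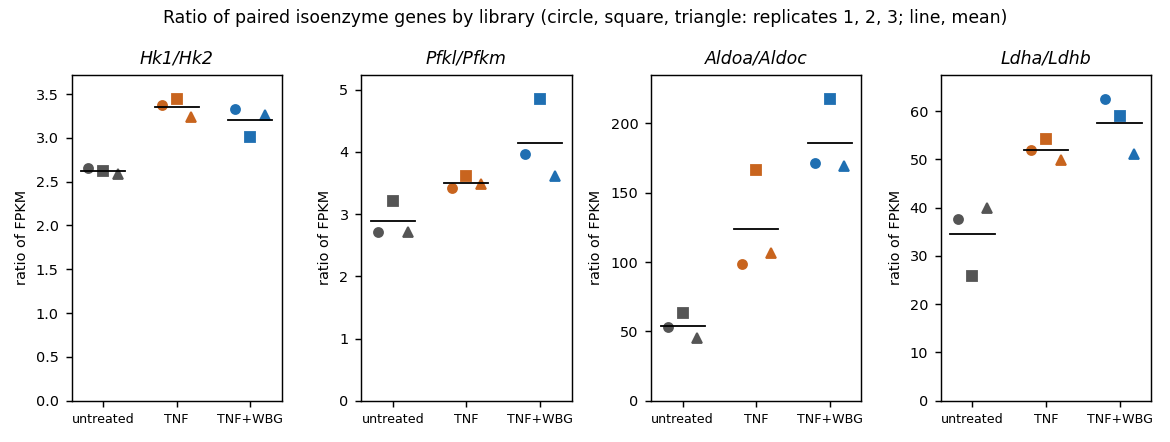
Ratio of FPKM between 2 genes for the same step (vertical axes, from 0) by group, with each point a library (circle, square and triangle for replicates 1, 2 and 3) and the line the group mean (n = 3). Treated libraries lie above untreated ones in all 4 panels, and the 3 groups separate fully only for Aldoa/Aldoc.

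For 9 pairs of genes that serve the same step, the ratio of FPKM was taken in each library, which cancels any scaling of a whole library. Aldoa/Aldoc was 53.5, 63.4 and 45.2 in the untreated libraries, 98.3, 166 and 107 with TNF, and 171, 218 and 169 with TNF plus WBG. The 3 groups did not overlap. Ldha/Ldhb had means of 34.4 ± 7.55, 51.9 ± 2.21 and 57.5 ± 5.88 (SD, n = 3). Hk1/Hk2 had means of 2.62 ± 0.0351, 3.35 ± 0.107 and 3.20 ± 0.173. Pfkl/Pfkm had means of 2.88 ± 0.289, 3.51 ± 0.101 and 4.15 ± 0.638. For these 3 ratios both treated groups lay above untreated and overlapped each other. P4ha1/P4ha2 moved the other way, with means of 2.48 ± 0.136, 1.96 ± 0.307 and 2.08 ± 0.137. Pfkl/Pfkp, with means of 10.8 ± 0.86, 11.8 ± 0.846 and 12.5 ± 0.39, lay above untreated without overlap in TNF plus WBG, while TNF overlapped both other groups. Eno1/Eno2 and Slc16a1/Slc16a3 overlapped between all groups. Ratios were compared by overlap only, with no test.

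HIF and its sensors gave 1 call among 3 genes, Egln3 in TNF plus WBG against untreated (33.3%, against 9.19% of all genes). The other comparisons gave none, where 10.6% (TNF against untreated) and 0.0998% (TNF plus WBG against TNF) of all genes were called. Hif1a, the alpha subunit that is controlled mainly through protein stability, read 32.6, 39.2 and 35 FPKM untreated, 37.7, 43.2 and 46.5 with TNF, and 35.9, 34.2 and 39.3 with TNF plus WBG. Its groups overlapped in every comparison. TNF was 0.25 ± 0.09 above untreated (adjusted p = 0.139), and TNF plus WBG was -0.21 ± 0.09 from TNF (adjusted p = 0.55).

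Egln3, the prolyl hydroxylase PHD3, is itself a HIF target and feeds back on HIF. It read 34.0, 37.9 and 30.5 FPKM untreated, 42.1, 43.1 and 41.5 with TNF, and 50.9, 56.9 and 43.9 with TNF plus WBG. The 3 groups were fully ordered without overlap, as for Hk1. Egln3 rose 1.48-fold from untreated to TNF plus WBG (0.55 ± 0.10, adjusted p = 0.0084). The single steps were 0.30 ± 0.10 (adjusted p = 0.092) and 0.25 ± 0.10 (adjusted p = 0.52). Egln1, the main oxygen sensor PHD2, had means of 31.2 ± 2.73, 33.7 ± 2.35 and 39.8 ± 6.78 FPKM with no call, and Egln3/Egln1 lay higher in both treated groups than in untreated (1.09 ± 0.027, 1.26 ± 0.0628 and 1.28 ± 0.0534).

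The 11 other hypoxia targets were all above 0 in both comparisons of TNF plus WBG, with medians of 0.24 against TNF and 0.43 against untreated. Of all genes, 48.9% were above 0 against TNF and 49.2% against untreated. None of the 11 was called, where 0.0998% of all genes were called against TNF and 9.19% against untreated. A list of 11 is too short to set none apart from these shares. Bnip3, a mitophagy receptor, read 83.4, 94.0 and 67.1 FPKM untreated, 92.3, 102 and 90.9 with TNF, and 117, 144 and 94.3 with TNF plus WBG. Its TNF plus WBG range began just above the highest untreated library and covered the highest TNF one. The difference from untreated was 0.53 ± 0.16 (adjusted p = 0.0776), or an adjusted p of 0.0265 without TNF plus WBG replicate 3.

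Ndrg1, a stress and differentiation gene widely used as a hypoxia marker, read 65.8, 76.4 and 61.0 FPKM untreated, 78.4, 83.0 and 73.5 with TNF, and 91.9, 121 and 81.2 with TNF plus WBG. The TNF plus WBG group was wholly above untreated and overlapped TNF. The difference from untreated was 0.51 ± 0.14 (adjusted p = 0.0529), and it passed without TNF plus WBG replicate 3 (0.0233) or untreated replicate 2 (0.0491).

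Car9, the carbonic anhydrase that acidifies the outside of hypoxic cells, read 14.4, 17.9 and 12.3 FPKM untreated, 14.9, 14.7 and 14.1 with TNF, and 22.2, 25.3 and 12.9 with TNF plus WBG. Replicates 1 and 2 of TNF plus WBG were the highest of the 9 libraries, and replicate 3 was within the untreated range. Ankrd37, a small ankyrin repeat protein, read 6.28, 10.3 and 4.53 FPKM untreated, 5.98, 7.12 and 5.65 with TNF, and 8.63, 12.2 and 7.68 with TNF plus WBG. TNF plus WBG was wholly above TNF but not above untreated, and the difference from TNF was 0.52 ± 0.25 (adjusted p = 0.595). Ankrd37 overlaps exons of Ufsp2 and Lrp2bp, the higher of which reached 17.3 FPKM in its highest library.

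Collagen prolyl hydroxylase subunits P4ha1 and P4ha2 modify collagen, which these cells expressed strongly. P4ha2 read 43.6, 52.0 and 40.1 FPKM untreated, 58.5, 75.6 and 53.2 with TNF, and 63.4, 74.2 and 56.2 with TNF plus WBG. Its treated libraries all exceeded the untreated ones, with 0.45 ± 0.15 for TNF against untreated (adjusted p = 0.102). P4ha1 had means of 111.5 ± 8.77, 120.3 ± 4.67 and 133 ± 10.3 FPKM, and TNF plus WBG was 0.26 ± 0.07 from untreated (adjusted p = 0.0584). This passed without TNF plus WBG replicate 3 (0.028) or untreated replicate 2 (0.032).

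Vegfa, the vascular growth factor, read 57.4, 61.8 and 53.1 FPKM untreated, 65.2, 70.3 and 65.4 with TNF, and 68.1, 94.5 and 65.0 with TNF plus WBG. All treated libraries exceeded the untreated ones, and TNF plus WBG replicate 2 stood far above the other 2 of its group. Kdm3a (a histone demethylase) had means of 40.7 ± 3.37, 43.1 ± 0.733 and 51.6 ± 7.84 FPKM, Mxi1 (a MYC antagonist) 41.0 ± 0.676, 38.2 ± 10.1 and 43.8 ± 5.83, and Adm 1.62 ± 0.553, 2.14 ± 0.646 and 2.49 ± 0.323, with no call.

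Ak4, a mitochondrial adenylate kinase, had 1 library far from the others. It read 3.16, 3.85 and 3.32 FPKM untreated, 3.59, 4.27 and 4.37 with TNF, and 23.8, 4.34 and 3.59 with TNF plus WBG. TNF plus WBG replicate 1 was 2.21 above the next library on the log2 scale, and 6 genes of 13749 stood more than 1 above all other libraries in that library. The difference of TNF plus WBG from TNF was 0.74 ± 0.53 with all libraries and -0.03 without that library, so the group mean of Ak4 rests on it.

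The TNF plus WBG libraries differed among themselves more for these genes than for others. Replicate 2 was the highest of its group for 29 of the 35 genes (82.9%), where it was so for 34.3% of all genes, and replicate 3 was the lowest for 31 (88.6%), against 34.1% of all genes. The order replicate 2, 1, 3 held for 28 genes (80.0%), against 18.6% of all genes. The median SD of log2 values over the 35 genes was 0.19 in TNF plus WBG, 0.14 in untreated and 0.09 in TNF, and the medians over all genes were 0.087, 0.086 and 0.084. TNF plus WBG had the largest of the 3 SDs for 22 of the 35 genes (62.9%), against 34.8% of all genes. The count was 11 with TNF plus WBG replicate 2 or 3 left out. There the SD of TNF plus WBG rests on 2 libraries and the others on 3, so this count cannot be set against the 34.8%.

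The untreated group showed a like order, with replicate 2 highest for 30 of 35 genes (85.7%) and replicate 3 lowest for 26 (74.3%). Of all genes, 33.9% and 31.3% did so. The order replicate 2, 1, 3 held for 22 genes (62.9%) in untreated, against 16.2% of all genes. In the TNF group replicate 2 was highest for 20 (57.1%), against 31.2% of all genes. Relative to the untreated mean, the median of the 35 genes was -0.01, 0.13 and -0.12 on the log2 scale in untreated replicates 1 to 3, 0.09, 0.20 and 0.12 in the TNF libraries, and 0.33, 0.49 and 0.15 in the TNF plus WBG libraries. On this measure TNF plus WBG replicates 1 and 2 lay above the 3 TNF libraries, and replicate 3 lay within their range. The medians of all genes were within 0.007 of 0 in all 9 libraries. The inferred depth was 23.1, 21.9 and 18.9 M fragments in TNF plus WBG replicates 1 to 3 and 26.1, 21.8 and 20.1 M in the untreated ones. In the TNF ones it was 21.25, 22.5 and 18.98 M. Replicate 3 was thus the shallowest of each group. In the TNF group replicate 3 was the lowest for 13 of the 35 genes (37.1%), against 32.2% of all genes. The part of depth in the order of the libraries was not tested.

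**Figure D5:**
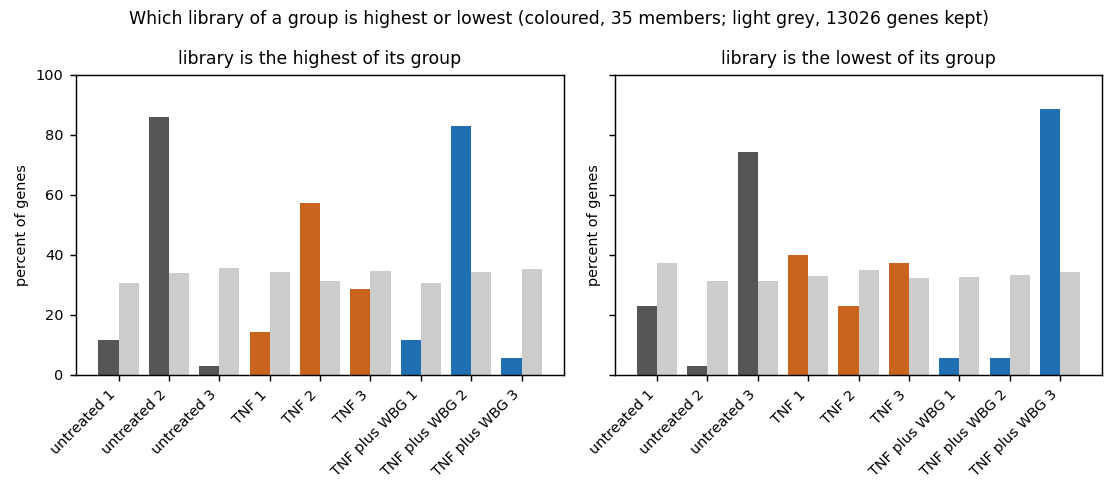
Percent of genes (vertical axes) for which each library (horizontal axes) is the highest (left) or the lowest (right) of its group, for the 35 genes (coloured) and for all 13026 genes tested (light grey). Replicate 2 is highest for 85.7% of the 35 genes in untreated and 82.9% in TNF plus WBG, and replicate 3 is lowest for 74.3% and 88.6%.

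The genes moved together across the 9 libraries. With each gene standardised, 23 of the 35 had a Pearson correlation of at least 0.8 with the mean of the others, and the median was 0.867. Those with a correlation under 0 were Aldoc (-0.769), Ldhb (-0.198), Slc16a1 (-0.1) and Hif1a (-0.078). Outside the set, 215 of 12991 genes reached 0.8 with the mean of the set. The 12991 still hold near-identical copies of genes of the set, which may share reads with them. These correlations are over 9 libraries in 3 groups, which share library and group, and are given as a description. The 10 outside genes nearest to the mean of the set were Dip2a (0.983), 4 Gapdh copies (Gm12033, Gm3272, Gm12070 and Gm12671, 0.974 to 0.978), the collagen lysyl hydroxylases Plod2 (0.975) and Plod1 (0.971), Epm2a (0.974), Lrp5 (0.97) and Ero1l (0.968), which reoxidises the disulphide machinery of the endoplasmic reticulum. Because the 4 copies may share reads with Gapdh, a gene of the set, their nearness cannot be taken as independent of it.

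Other genes of the pathway, from a list of 35 glycolytic and pyruvate genes of which 21 were tested are described next. With TNF 2 rose and 1 fell, 14.3% of the 21 against 10.6% of all genes. Slc2a6, a lysosomal hexose transporter, read 1.96, 2.21 and 1.60 FPKM untreated, 7.53, 9.07 and 8.69 with TNF, and 8.27, 8.59 and 9.34 with TNF plus WBG, and it rose 4.38-fold with TNF (1.69 ± 0.10, adjusted p = 8.93e-06). Bpgm, which makes 2,3-bisphosphoglycerate, rose by 0.30 ± 0.05 (adjusted p = 0.00545). Pfkfb4, a fructose 2,6-bisphosphate enzyme like Pfkfb3, fell from 10.2 ± 0.772 to 5.48 ± 0.247 FPKM (-0.79 ± 0.07, adjusted p = 9.02e-05). None of the 21 was called in TNF plus WBG against TNF, where 0.0998% of all genes were. At an unadjusted p under 0.05 stood 2 of them upwards and 1 downwards, against 9.06% of all genes (4.18% higher). In TNF plus WBG against untreated 3 rose, Slc2a6 (1.74 ± 0.10), Bsg (the partner protein of MCT1, 0.49 ± 0.09) and Pgm1 (0.46 ± 0.11), and Pfkfb4 fell (-0.68 ± 0.07), 19.0% of the 21 against 9.19% of all genes. The call of Pgm1 was lost with any of 6 libraries left out, namely replicates 1 and 3 of untreated, 2 and 3 of TNF, and 1 and 2 of TNF plus WBG (adjusted p 0.0501 to 0.121).

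Among 18 HIF subunits and regulators 17 were tested and none was called in any comparison. Of all genes, 10.6% were called in TNF against untreated, 0.0998% in TNF plus WBG against TNF and 9.19% in TNF plus WBG against untreated. A list of 17 is too short to set none apart from these shares. The gene nearest to a call was Vhl, the ubiquitin ligase subunit that binds hydroxylated HIF, at 0.25 ± 0.07 in TNF plus WBG against untreated (adjusted p = 0.0691, or 0.0223 without TNF plus WBG replicate 3).

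Of 50 further genes known to be induced by hypoxia, 40 were tested. In TNF plus WBG against TNF 36 of the 40 were above 0 with a median of 0.19, 14 stood wholly above TNF and none wholly below, and 1 was called. Of all genes 48.9% were above 0, 7.03% stood wholly above, 7.72% wholly below and 0.0998% were called. The called gene was Tfrc, the transferrin receptor, at 42.3, 36.7 and 43.1 FPKM with TNF and 72.2, 73.2 and 67.8 with TNF plus WBG, which rose 1.74-fold (0.79 ± 0.06, adjusted p = 0.00384). Tfrc is also under iron control, and its groups lay far apart. In TNF against untreated 2 of the 40 were called higher, Angptl4 (0.66 ± 0.09) and Rab20 (0.44 ± 0.09), and 2 lower, Stc2 (-1.29 ± 0.06) and Igfbp3 (-0.47 ± 0.09). That was 10.0% of the 40, near the 10.6% of all genes called.

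In TNF plus WBG against untreated 10 of the 40 rose and 2 fell, where 5.52% of all genes rose and 3.67% fell. The rises of Tfrc (0.94 ± 0.06) and Angptl4 (0.86 ± 0.09) and the falls of Stc2 (-0.99 ± 0.06) and Igfbp3 (-0.59 ± 0.09) held with each library left out. The other rises included Bhlhe40, Lox, Hmox1, Tmem45a, Inha, Fam162a and Plod1, between 0.30 and 0.53. Each of these 7 lost its call in at least 1 omission, and the 10 rises became 2 without untreated replicate 3, 4 without untreated replicate 1, 4 without TNF plus WBG replicate 1 or 2, and 6 without TNF replicate 3. They became 14 without TNF plus WBG replicate 3, 11 without untreated replicate 2 and 8 without TNF replicate 1 or 2. A further 15 genes of the integrated stress response and MYC, pathways that also act on Hk2, Vegfa, Adm or Ndrg1, had 14 tested. With TNF 3 of the 14 rose, Ddit3 (0.41 ± 0.05), Chac1 (0.39 ± 0.10) and Trib3 (0.30 ± 0.08). That was 21.4% of the 14, against 10.6% of all genes called (6.43% higher). The calls of Chac1 and Trib3 were each lost in several omissions, and 1 call was left with the omission of replicate 1 or 3 of untreated, of replicate 1 or 2 of TNF, or of replicate 2 of TNF plus WBG. In TNF plus WBG against untreated 4 rose, Trib3 (0.66 ± 0.08), Ddit3 (0.57 ± 0.05), Chac1 (0.55 ± 0.10) and Sesn2 (0.32 ± 0.07). That was 28.6% of the 14, against 9.19% of all genes called (5.52% higher). Sesn2 lost its call without any untreated library or without TNF plus WBG replicate 1 or 2 (adjusted p 0.05 to 0.106). The part of these pathways in the levels of the 35 genes was not tested.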

How the data were processed

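Poly-A RNA of 9 libraries, 3 per group, was sequenced. The authors deposited FPKM per gene; which aligner, annotation and build lie behind them was not given in the sources used here. No counts were used. Symbols came from GENCODE M21 (55144 of 56289 identifiers). Genes with at least 1 FPKM in at least 3 libraries (13026) were fitted as log2(FPKM + 1) by limma (version 3.58.1, R 4.3.3; trended variance, 9 libraries, a term for group). P-values were two-sided and Benjamini-Hochberg adjusted over all genes kept. Errors are SD beside means and SE beside log2 fold changes. The fit was tested on simulated data. The 36 genes, the other lists and the tests were chosen with earlier results of these data known. All 36 are named; from other lists called genes and up to 2 with the largest change per comparison, and outside them the 10 genes nearest in pattern. 1 gene of another list is not reported here. Near-identical copies were found with blastn 2.17.0, promoters come from RefSeq (GRCm38.p6). Depth was inferred from whole steps of FPKM times length in single-exon genes: 16.6 to 28.1% of values were within 0.02 of a whole step, where even spread gives 4%. No counting interval can be given. Alternatives were other pseudocounts (0.1 or 5), an unfiltered table, a stricter filter (mean of at least 5 FPKM), median-ratio scaling, quantile normalization, only the 6 libraries compared, limma without trend or robust, a replicate block, and omission of each library. Scripts ran under python 3.11.15.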

Additional observations from a re-analysis of the deposited data

How the results depend on the processing

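Of the genes tested in the set, none was called in TNF plus WBG against TNF under any alternative, and Aldoc was called lower under every alternative in both comparisons with untreated. For TNF against untreated the 1 call became 2 under the stricter filter, 2 with only the 6 libraries compared and 4 with the replicate block, and 1 to 3 with single libraries left out. For TNF plus WBG against untreated the 7 calls became 4 with no filter, 9 with the stricter filter (Slc2a1 and Pgk1 added), 8 with a pseudocount of 5, robust limma or copies summed (Pgk1 added) and 17 with the replicate block, and 4 to 17 with single libraries left out. Over all genes, the 13 calls of TNF plus WBG against TNF became 7 with only the 6 libraries, 8 with the replicate block and 8 to 14 with single libraries left out, and the 1386 of TNF against untreated became 919 to 1296 (919 without TNF replicate 3). The 1197 of TNF plus WBG against untreated became 821 to 1115 with single libraries left out. The count of 22 genes with the largest SD in TNF plus WBG became 24 without replicate 1 of that group and 11 without replicate 2 or 3. These omissions leave 2 libraries in that group against 3 in the others, so the SDs are not alike. The log2 fold change of Ak4 in TNF plus WBG against TNF was -0.033 to 1.182 with single libraries left out, and reversed only without TNF plus WBG replicate 1. Among the fold changes of named genes under the alternatives, 1259 kept direction and call, 87 lost the call, 29 gained it and 1 reversed. Except for fewer samples or another set of genes, the cause was not tested.

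The replicate numbers of the labels were not treated as pairs. Deviations from the group mean correlated at -0.072 to 0.107 over all genes for same-numbered libraries, with 1 of 9 pairs above 0.1, and not every library correlated best with its own number (untreated replicate 1 was nearest to TNF replicate 2, at 0.058). Over the 35 genes tested in the set, same-numbered libraries correlated at -0.173 to 0.43, and libraries of other numbers at -0.455 to 0.226. Whether the replicate number carries an effect shared between groups in these genes was not tested. The counts with the replicate block are given above and come from shared numbers only. The values hold no counts, so what depth limits for genes near 1 FPKM, such as Adm and Slc16a3, was not measured.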
